A study of Mus musculus with 40 samples.

Results

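Cadherin genes, a set of 6, were followed across all 40 libraries of the series: Cdh1, Cdh2, Cdh3, Cdh11, Cdh13 and Cdh17. They were taken by symbol from the deposited expression table, and 4 of the 6 genes had a row there, of 21347 genes in all. Cdh2 and Cdh13 were not analysed here. The set was chosen by measured values, the lower Cdh17 level on collagen IV and fibronectin, so the collagen IV and fibronectin values below are given as a description with no test, as are the values of Cdh17 on every substrate.

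The study cultured 4T1 cells, a mouse mammary carcinoma line of BALB/c origin, on plastic with or without T cells isolated from C57Bl6 spleens. The plastic was tissue culture polystyrene, left uncoated or coated at 250 µg/ml with one of 4 matrix proteins: collagen I, vitronectin, collagen IV or fibronectin. Carcinoma cells were seeded at 10000 per cm2 and left overnight, then T cells at 80000 per cm2 were added for 24 h, and wells with and without T cells both received interleukin 2 at 30 U/mL. The 22 libraries of 4T1 alone comprised 5 each for uncoated plastic and fibronectin and 4 for each other coat, and the 18 co-culture libraries comprised 4 each for uncoated plastic, fibronectin and collagen IV and 3 each for collagen I and vitronectin. The libraries came from 5 experiments, numbered 1 to 5 here, and experiments 2 to 5 held 4T1 alone on all 5 substrates. All carcinoma cells are 1 line in culture, and RNA of carcinoma cells and T cells was extracted together, so a co-culture library is a mixture.

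Cadherins are transmembrane proteins whose extracellular repeats bind calcium and hold neighbouring cells together. The cytoplasmic tails of the classical members, E-cadherin (Cdh1), P-cadherin (Cdh3) and OB-cadherin (Cdh11), bind p120 and beta-catenin, which link them to actin through alpha-catenin. Cdh1 is the main cadherin of mammary luminal epithelium, Cdh3 marks myoepithelial and basal cells, and Cdh11 is known from mesenchymal cells. Cdh17, or LI-cadherin, has a short tail that does not bind catenins, and is known from intestinal epithelium.

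Values are reads divided by a scaled library size in mega-reads (per M), differences are on the log2(value + 1) scale ± SE unless stated, and tests are limma fits over all 14701 genes that reached 1 per M in at least 3 libraries, with Benjamini-Hochberg adjustment and a threshold of 0.05. All 4 cadherins passed that filter, Cdh1 and Cdh17 in 40 libraries, Cdh3 in 12 and Cdh11 in 3. Recovered depth was 18.95 to 239.13 M reads with a median of 34.6 M, and the deepest library was the collagen IV co-culture of experiment 5, followed by 47.73 M. The summed level of 20 T cell markers was 2.85 to 6.02 per M in 4T1 alone, with 18 of the 20 under 1 per M in every library, and 23.9 to 3839 per M in co-culture. It was highest in experiment 4, at 1268 to 3839 per M. The summed level of 19 carcinoma epithelial markers without cadherins was 2681 to 3889 per M in 4T1 alone and 1589 to 3612 per M in co-culture. Epithelial markers were thus present in every library, and the T cell markers separate the arms without overlap.

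Cdh1 was by far the most abundant cadherin. The gene lies on chromosome 8, plus strand, from 106603351 to 106670246 of mm10 (GENCODE vM21 annotation), 46053 bases downstream of Cdh3, which lies from 106510891 to 106557297 on the same strand. Cdh17 lies on chromosome 4, plus strand, from 11758147 to 11817895, and Cdh11 on chromosome 8, minus strand, from 102632095 to 102785642. Per kb of exon, the mean level in 4T1 alone was 103 per M for Cdh1, 1.28 for Cdh17, 0.208 for Cdh3 and 0.0746 for Cdh11. The order in co-culture was the same, at 96.3, 1.19, 0.184 and 0.08 per M per kb. The median library held 15599 reads of Cdh1, 184 of Cdh17, 28 of Cdh3 and 23.5 of Cdh11. Counting error at the median was 0.801% of the level for Cdh1, 7.36% for Cdh17, 18.9% for Cdh3 and 20.6% for Cdh11. Between libraries of the same substrate and condition, the variance was 365 times the counting variance for Cdh1 and 5.1 times for Cdh17. It was 4.17 times for Cdh3 and 2.34 times for Cdh11.

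Cdh17 was lower in 4T1 cells on collagen IV and fibronectin than on the other 3 substrates. On uncoated plastic, 4T1 alone gave 7.42, 5.70, 5.07, 9.76 and 6.76 per M in experiments 1 to 5. On collagen IV the values were 3.78, 3.39, 4.49 and 3.27 per M in experiments 2 to 5. On fibronectin they were 4.05, 4.30, 3.66, 4.80 and 3.81 per M in experiments 1 to 5. The highest of these collagen IV and fibronectin libraries, fibronectin in experiment 4, lay below the lowest uncoated library, so the groups did not overlap. Cdh17 was chosen for this fall, and the share of all genes that separate in this way was not counted. On collagen I, the values were 6.79, 6.89, 8.46 and 7.40 per M in experiments 2 to 5. On vitronectin they were 5.58, 5.33, 8.46 and 6.56 per M in the same experiments. These ranges overlapped with the uncoated range and lay wholly above collagen IV and fibronectin.

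**Figure D1:**
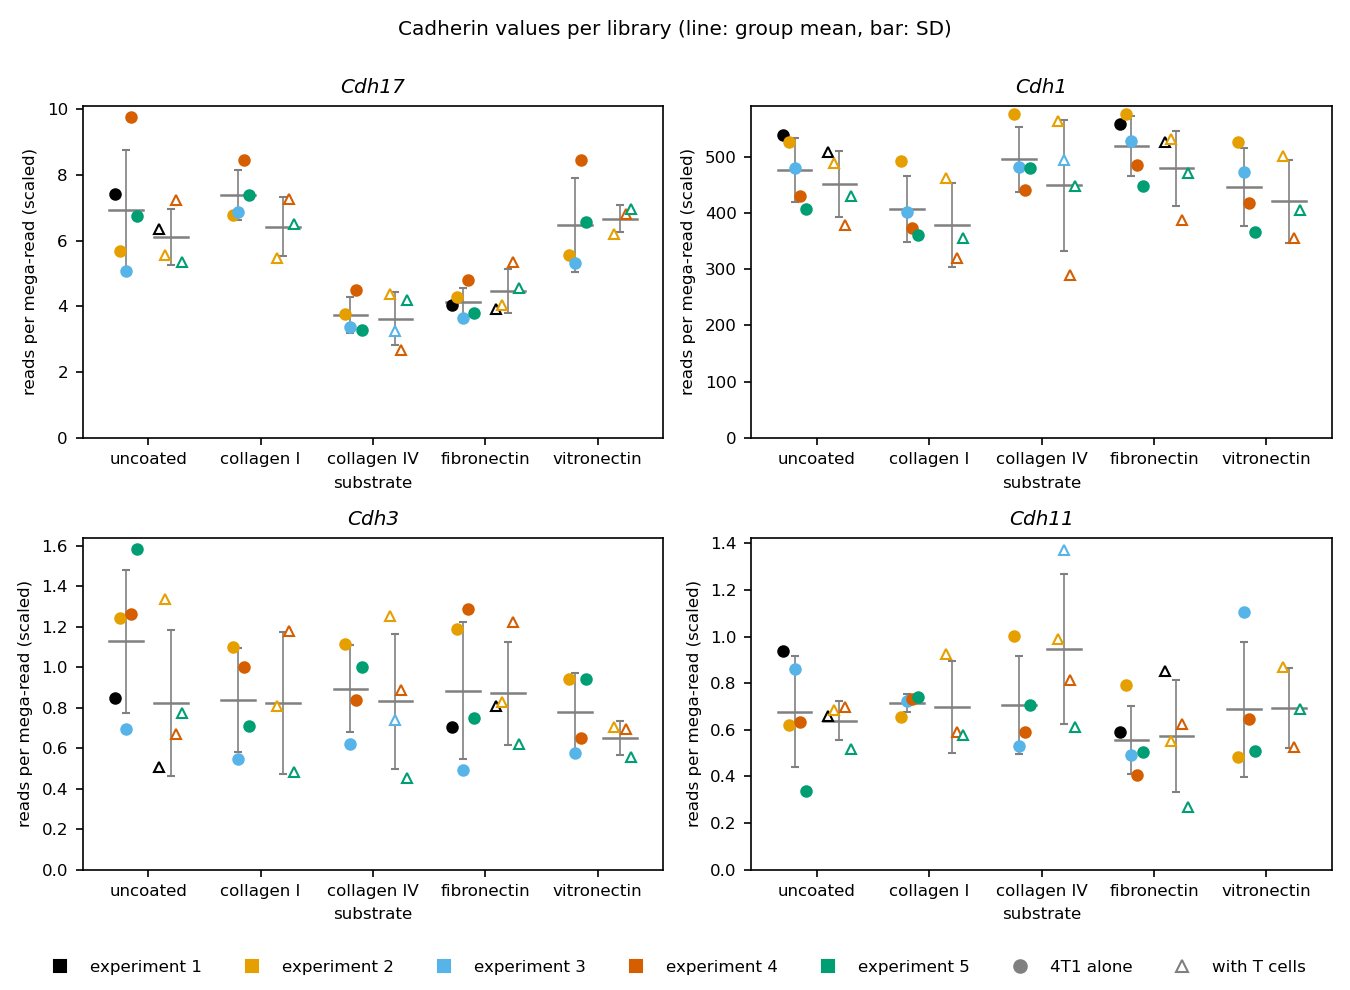
Level in per M (linear axis from 0) of Cdh1, Cdh17, Cdh3 and Cdh11 in each of the 40 libraries, by substrate, with filled circles for 4T1 alone and open triangles for co-culture, coloured by experiment; lines are group means and bars SD. Cdh17 is lower on collagen IV and fibronectin than on the other 3 substrates in 4T1 alone, whereas the ranges of Cdh1, Cdh3 and Cdh11 overlap across substrates.

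Group means of Cdh17 in 4T1 alone were 3.73 ± 0.55 per M for collagen IV (SD, n = 4) and 4.12 ± 0.447 for fibronectin (n = 5). They were 6.48 ± 1.42 for vitronectin (n = 4), 6.94 ± 1.82 for uncoated plastic (n = 5) and 7.39 ± 0.766 for collagen I (n = 4). Against uncoated plastic the log2 difference was −0.73 ± 0.14 on collagen IV, −0.61 ± 0.13 on fibronectin, 0.10 ± 0.14 on collagen I and −0.08 ± 0.14 on vitronectin. The uncoated libraries are shared by these comparisons. Of 14701 genes, 11 had a lower estimate than Cdh17 on collagen IV and 2 on fibronectin. These ranks describe size only, since Cdh17 was chosen for its fall on these coats. Within an experiment, Cdh17 on collagen IV was 46.0% to 66.8% of the uncoated value and lower in 4 of 4 experiments. On fibronectin it was 49.2% to 75.5% and lower in 5 of 5. On collagen I it was 86.8% to 136% and lower in 1 of 4, and on vitronectin 86.7% to 105% and lower in 3 of 4. The order of levels was thus collagen IV and fibronectin below vitronectin, uncoated plastic and collagen I. In each of experiments 2 to 5, Cdh17 in 4T1 alone was lower on collagen IV than on fibronectin. It was also lower on vitronectin than on collagen I, but nearly equal in experiment 4 (8.463 against 8.465 per M). Differences within these sets were not tested.

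**Figure D2:**
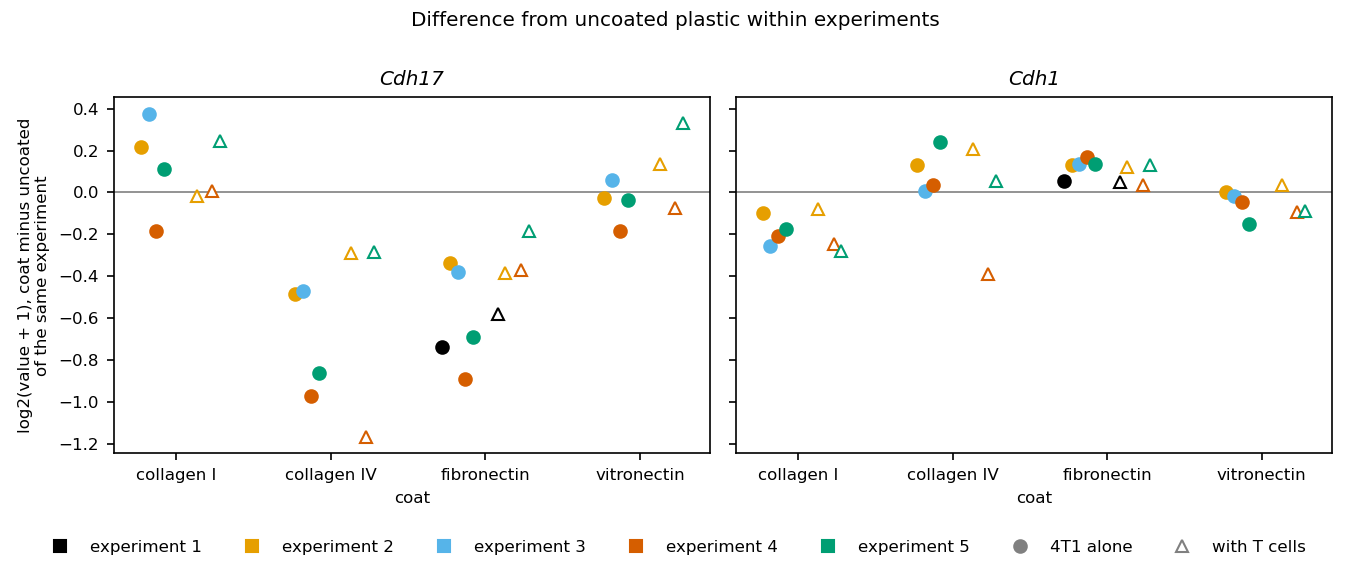
Difference in log2(value + 1) of each coat from uncoated plastic of the same experiment, for Cdh17 and Cdh1, with filled circles for 4T1 alone and open triangles for co-culture, coloured by experiment. Cdh17 lies below 0 in every experiment on collagen IV and fibronectin, while Cdh1 lies above 0 on fibronectin and below 0 on collagen I.

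The same direction was seen for Cdh17 when T cells were present. Co-culture values were 6.36, 5.58, 7.23 and 5.34 per M on uncoated plastic (experiments 1, 2, 4 and 5). They were 4.38, 3.27, 2.66 and 4.20 per M on collagen IV (experiments 2 to 5), and 3.91, 4.04, 5.36 and 4.57 per M on fibronectin (experiments 1, 2, 4 and 5). The collagen IV libraries lay below all uncoated ones, while fibronectin in experiment 4 slightly exceeded the lowest uncoated library. On collagen I, the values were 5.49, 7.27 and 6.52 per M, and on vitronectin 6.22, 6.82 and 6.98 per M, in experiments 2, 4 and 5. The log2 difference from uncoated plastic in co-culture was −0.63 ± 0.14 on collagen IV and −0.38 ± 0.14 on fibronectin, against 0.06 ± 0.16 on collagen I and 0.11 ± 0.16 on vitronectin. Within an experiment, Cdh17 was 36.8% to 78.6% of the uncoated value on collagen IV (lower in 3 of 3) and 61.5% to 85.6% on fibronectin (lower in 4 of 4). The 36.8% was experiment 4, while experiments 2 and 5 both gave 78.6%. That collagen IV library had a T cell marker sum of 3839 per M and an epithelial marker sum of 1589 per M. Its uncoated partner had 1328 and 2285 per M. The part of this mixture in the Cdh17 value was not tested. A test of whether the Cdh17 difference itself depends on T cells is not reported here, since these values chose the genes.

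Substrate held the largest share of the Cdh17 variation, which the choice of the genes fixes in part. In the 20 libraries of 4T1 alone from experiments 2 to 5, substrate held 73.8% of the sum of squares of Cdh17, the experiment 19.9% and the rest 6.28%. The medians over all genes were 16.5%, 46.4% and 30.7%. For Cdh1 the shares were 34.8%, 58.5% and 6.73%, for Cdh3 21.9%, 54.0% and 24.1%, and for Cdh11 12.9%, 16.1% and 71.0%. In the 15 co-culture libraries of experiments 2, 4 and 5, the shares for Cdh17 were 73.1%, 2.27% and 24.6%. Cdh11, with the fewest reads, had the largest unexplained share in 4T1 alone.

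Cdh1 did not follow Cdh17. On uncoated plastic 4T1 alone gave 539, 527, 479.7, 431 and 407 per M in experiments 1 to 5. On collagen IV it gave 576, 482.5, 442 and 481 per M in experiments 2 to 5, and on fibronectin 559, 577, 527.5, 486 and 448 per M in experiments 1 to 5. On collagen I it gave 492.9, 401, 373 and 361 per M, and on vitronectin 527, 474, 418 and 366 per M, in experiments 2 to 5. The ranges of all these groups overlapped in level. Within an experiment, Cdh1 on fibronectin was 104% to 113% of the uncoated value, higher in 5 of 5. On collagen IV it was 101% to 118%, higher in 4 of 4. These are the coats on which Cdh17 was lower. In co-culture, Cdh1 on fibronectin was again higher in 4 of 4 (103% to 110%), but on collagen IV it was 76.3% to 115% of uncoated and higher in 2 of 3. In 4T1 alone, Cdh1 on collagen I was 83.6% to 93.5% of uncoated, lower in 4 of 4.

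Collagen I and vitronectin were not used to choose the genes, and 0 of the 3 cadherins other than Cdh17 passed the test on either coat. For Cdh1 on collagen I the log2 difference was −0.23 ± 0.15 (limma adjusted p = 1). With the experiment as a block it was −0.19 ± 0.08 (adjusted p = 0.455). The co-culture difference was −0.26 ± 0.17 (adjusted p = 1), with Cdh1 lower in 3 of 3 experiments. Over all genes tested, 0.0952% were called on collagen I in 4T1 alone and 0.0068% in co-culture. On vitronectin the Cdh1 difference was −0.10 ± 0.15 in 4T1 alone (adjusted p = 1), and the share of all genes called by limma was 0, with 164 genes at an unadjusted p under 0.05 in 4T1 alone and 115 in co-culture, and 0 in both with edgeR on the recovered reads. Cdh3 on vitronectin, at −0.25 ± 0.15, and on collagen I, at −0.20 ± 0.15, had adjusted p values of 1 in 4T1 alone. Cdh11 differed by 0.04 ± 0.13 on collagen I (adjusted p = 1), well within its error.

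**Figure D3:**
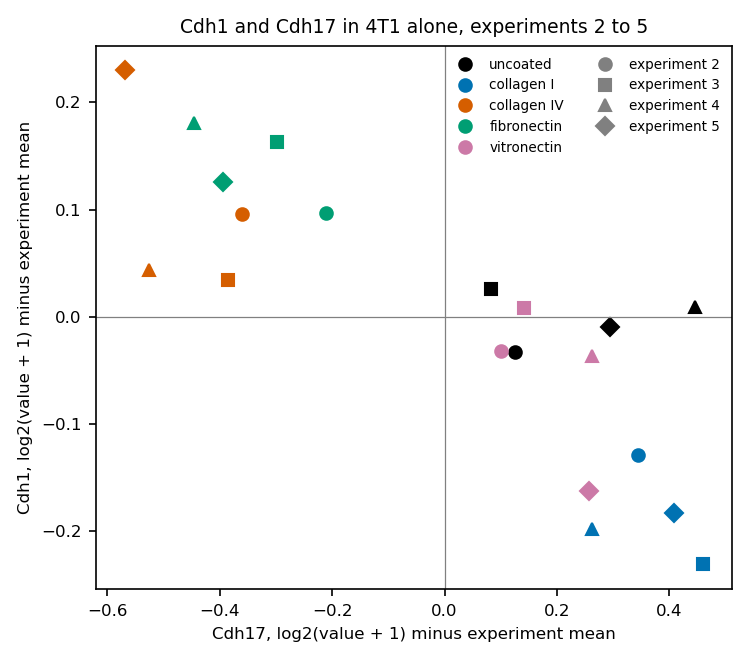
Cdh1 against Cdh17 in the 20 libraries of 4T1 alone from experiments 2 to 5, as log2(value + 1) minus the mean of the experiment, with substrates by colour. The collagen IV and fibronectin libraries have lower Cdh17 and mostly higher Cdh1 than those on uncoated plastic, collagen I and vitronectin.

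Cdh3 and Cdh11 were low, above the value of 3 reads in a library (0.0124 to 0.158 per M) and at most 1.58 and 1.37 per M. Cdh3 on uncoated plastic in 4T1 alone gave 0.849, 1.24, 0.696, 1.26 and 1.58 per M in experiments 1 to 5. Means in 4T1 alone ran from 0.777 ± 0.194 per M on vitronectin (SD, n = 4) to 1.13 ± 0.355 on uncoated plastic (n = 5), with 0.839 ± 0.257 for collagen I, 0.893 ± 0.216 for collagen IV and 0.883 ± 0.338 for fibronectin between them. In 4T1 alone, Cdh3 was lower than uncoated within the experiment in 4 of 4 pairs on collagen I, collagen IV and vitronectin, and in 4 of 5 on fibronectin, with overlapping groups. In co-culture it was lower in 2 of 3 pairs on each of those coats and in 2 of 4 on fibronectin. The coats share the uncoated libraries, so these counts are not independent. In 4T1 alone, the highest Cdh3 value was uncoated plastic in experiment 5, at 1.58 per M from 33 reads. Cdh11 ranged from 0.336 to 1.11 per M in 4T1 alone with a mean of 0.664 ± 0.192 (SD, n = 22). In co-culture it ranged from 0.269 to 1.37 per M with a mean of 0.712 ± 0.238 (SD, n = 18), and the highest library was collagen IV in experiment 3. In 4T1 alone the ranges of Cdh11 on all 5 substrates overlapped. In co-culture its mean on collagen IV was 0.947 ± 0.322 per M (SD, n = 4), against 0.574 to 0.697 per M on the other substrates. It was higher than uncoated there in 3 of 3 pairs, with a log2 difference of 0.24 ± 0.13, or 0.14 without experiment 3, and the ranges overlapped.

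T cells were compared with 4T1 alone over the 5 substrates, and 0 of the 4 cadherins passed the test (limma), while 25.2% of all genes did. Cdh1 averaged 472 ± 66.4 per M in 4T1 alone (SD, n = 22) and 440 ± 79.2 in co-culture (SD, n = 18). Its co-culture values were 509, 489, 379 and 431 per M on uncoated plastic and 527, 532.5, 388 and 472 on fibronectin (experiments 1, 2, 4 and 5), and 565, 495, 289 and 448.5 on collagen IV (experiments 2 to 5). In experiments 2, 4 and 5 they were 463, 319.6 and 355 per M on collagen I and 501, 356 and 405 on vitronectin. The ranges with and without T cells overlapped, and experiment 4 was the lowest co-culture on each of these substrates. Its log2 difference was −0.11 ± 0.07 (adjusted p = 0.232), and it was lower with T cells in 14 of 18 pairs of one experiment and substrate. With the experiment as a block, the estimate was −0.10 and passed the threshold (adjusted p = 0.0301), and 1 of 4 cadherins was then called, against 45.8% of all genes. This call was lost in the blocked fit without experiment 4 (−0.03, adjusted p = 0.464). It turned to the other direction in the blocked fit scaled to the epithelial markers (0.08, adjusted p = 0.012). Cdh17 differed by −0.04 ± 0.07 (adjusted p = 0.645) and was lower in 12 of 18 pairs. Cdh3 differed by −0.08 ± 0.07 (adjusted p = 0.413) and Cdh11 by 0.03 ± 0.06 (adjusted p = 0.707). In a mixture, fewer carcinoma cells and less RNA of the gene per carcinoma cell cannot be told apart. Without the block, the Cdh1 difference was 0.09 after scaling to the epithelial markers (adjusted p = 0.0636), where the all-gene median went from −0.01 to 0.17. The scaled estimates of Cdh17 and Cdh3 were also above 0, at 0.13 and 0.01. Quantile normalisation called Cdh3 (−0.31, adjusted p = 0.01) and Cdh11 (−0.23, adjusted p = 0.0388), the second against its direction in the deposited scaling.

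**Figure D4:**
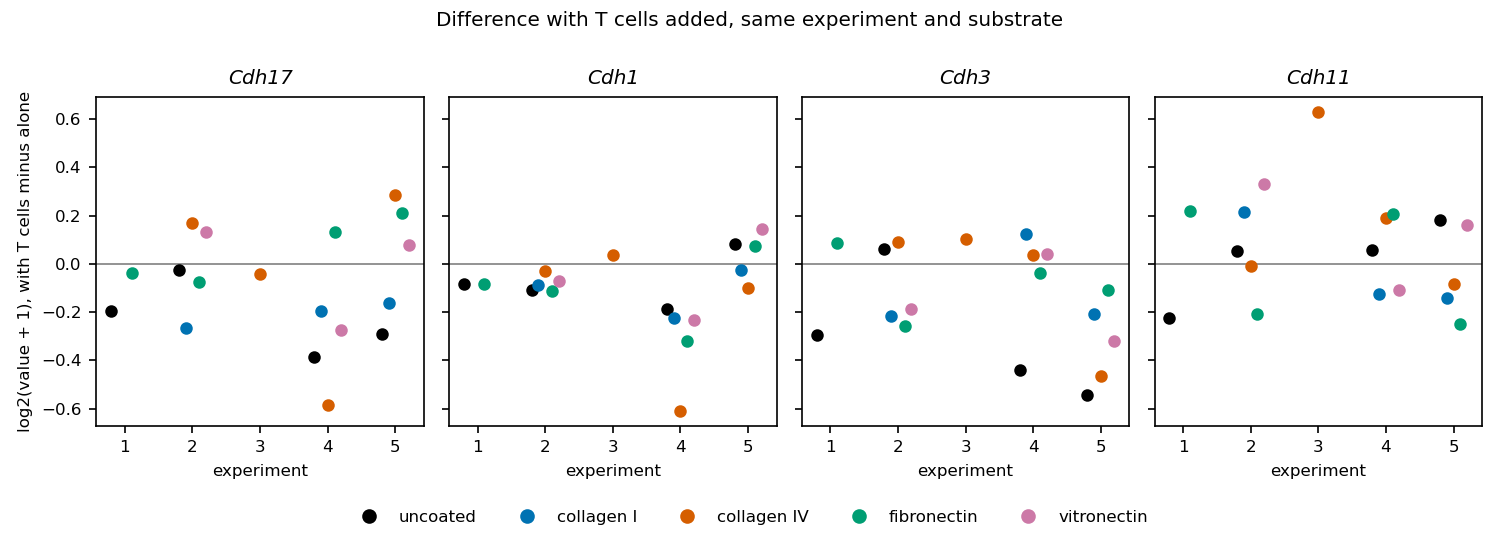
Difference in log2(value + 1) of co-culture from 4T1 alone for each of the 18 pairs of one experiment and substrate, by experiment, with substrates by colour, for each cadherin. Cdh1 is lower in 5 of 5 pairs of experiment 4 and of experiment 2, and its lowest pair is in experiment 4.

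The Cdh1 difference with T cells varied between experiments. Its mean log2 difference was −0.08 in experiment 1 (lower in 2 of 2 pairs), −0.08 in experiment 2 (5 of 5), 0.04 in experiment 3 (0 of 1), −0.32 in experiment 4 (5 of 5) and 0.04 in experiment 5 (2 of 5). In experiment 4, co-culture Cdh1 was 65.4% to 87.9% of the paired value. The F test of the T cell effect by experiment gave an adjusted p of 0.0056 for Cdh1 (limma), and 1 of the 4 cadherins was called, while 46.4% of all genes were. The adjusted p was 0.311 for Cdh3, 0.656 for Cdh11 and 0.372 for Cdh17. Without experiment 4 the Cdh1 value was 0.58, and with scaling to the epithelial markers it was 0.403, where Cdh3 was called instead (0.0424). With quantile normalisation Cdh11 (0.0104) and Cdh17 (0.0065) were called as well. Experiment 4 was also the experiment with the highest T cell marker sums, and its epithelial marker sum was 2795 to 3341 per M in 4T1 alone and 1589 to 2486 per M in co-culture. Their part in the Cdh1 difference was not tested.

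The T cell effect on the cadherins was also compared between substrates. In limma, 0 of the 3 cadherins other than Cdh17 passed, each with an adjusted p of 1. Over all genes 0 were called, with 53 genes (0.361%) at an unadjusted p under 0.05, and 0 again with edgeR on the recovered reads. Cdh17 was lower with T cells in 4 of 4 pairs on uncoated plastic and 3 of 3 on collagen I, but in 2 of 4 on fibronectin, 2 of 4 on collagen IV and 1 of 3 on vitronectin. These Cdh17 counts are a description, and no difference between substrates is drawn from them.

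Levels differed between experiments for all 4 cadherins, with adjusted p = 1.1e-07 for Cdh1, 0.00157 for Cdh3, 0.0285 for Cdh11 and 0.00621 for Cdh17 (limma F test), beside 83% of all genes. Cdh1 means in 4T1 alone were 549, 540, 473, 430 and 413 per M in experiments 1 to 5, and Cdh17 means were 5.74, 5.23, 4.87, 7.19 and 5.56 per M. Scaling to the epithelial markers ended the calls of Cdh1 (adjusted p = 0.0613) and Cdh11 (0.321), and quantile normalisation that of Cdh17 (0.793). The experiment with the highest Cdh17, experiment 4, had the second lowest Cdh1. The Cdh11 call was also lost without experiment 2 (0.0628) or 5 (0.272), and on leaving out any 1 of 4 libraries: the collagen IV co-culture of experiment 5 (adjusted p = 0.0559), the fibronectin co-culture of experiment 1 (0.0593) or 5 (0.0635), and uncoated 4T1 alone of experiment 5 (0.0695).

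Genes that work with cadherins were followed from lists of other cadherin genes, catenins and adherens junction proteins, desmosomal proteins, cleavage and turnover, and repressors of Cdh1. No member of any of these lists was called on collagen I or vitronectin in 4T1 alone, where 0.0952% and 0 of all genes were. With T cells, 2 of 14 catenin and adherens junction genes fell and 0 rose, with a median log2 difference of −0.13, beside −0.01 over all genes. Of all genes tested 12.2% fell and 13.1% rose. Nectin2, an immunoglobulin-type adhesion protein of these junctions, fell by 0.23 ± 0.06 (adjusted p = 0.00989), and Arvcf, a p120 relative, fell by 0.13 ± 0.05 (adjusted p = 0.0374). With the experiment block 9 of the 14 fell, beside 23.4% of all genes. Of 8 desmosomal genes, Pkp2, a plaque protein, fell by 0.15 ± 0.06 (adjusted p = 0.0455), the median was −0.15, and 4 fell with the block. The medians of both lists were above 0 after scaling to the epithelial markers, at 0.07 and 0.04, where the all-gene median was 0.17. Nectin2, Arvcf and Pkp2 then had adjusted p values of 0.701, 0.435 and 0.488.

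Among 12 genes of cadherin cleavage and turnover, 2 rose with T cells and 0 fell in limma, with a median of 0.06. With the experiment block 3 rose and 2 fell, beside 22.4% and 23.4% of all genes. Those that fell were Aph1a, a gamma-secretase subunit (adjusted p = 0.000588), and the metalloprotease gene Adam15 (adjusted p = 0.0121). Adam10, the sheddase that cleaves E-cadherin, rose by 0.11 ± 0.04 (adjusted p = 0.029), and Cblb, a ubiquitin ligase that T cells also express, rose by 0.66 ± 0.21 (adjusted p = 0.0264). In a mixture, the cells that held the added Adam10 and Cblb RNA cannot be told apart, and cadherin cleavage was not measured. Of 5 Cdh1 repressors, Zeb1 rose by 1.21 ± 0.33 (adjusted p = 0.0141), from a mean of 1.02 to 7.11 per M. Zeb1 is also expressed by T cells. Snai1 fell by 0.18 ± 0.06 (adjusted p = 0.0236) and Tcf3 by 0.19 ± 0.05 (adjusted p = 0.0124), and after scaling to the epithelial markers their estimates were 0.004 and 0.008. Of 4 other cadherins tested, 0 passed in limma. Cdh24, the highest of them, differed by −0.12 (adjusted p = 0.151, and 0.011 with the block).

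The genes whose pattern was most like Cdh17 were found by Pearson correlation of log2 values centred on the experiment mean, over the 20 libraries of 4T1 alone from experiments 2 to 5. Clip4, a protein with domains that bind microtubules, had r = 0.93, and Cyth2, an exchange factor for ARF, had r = 0.93. Ppard, a nuclear receptor, had r = 0.92, Sh2d5, an SH2 domain protein, had r = 0.92, and Arpc1b, an Arp2/3 subunit, had r = 0.92. Clip4 averaged 7.99 per M on collagen IV and 8.95 on fibronectin, against 11.3 on uncoated plastic, 12.1 on vitronectin and 13.9 on collagen I. These genes were selected for that pattern, and libraries of an experiment share its conditions, so the correlations are a description. The 15 co-culture libraries of experiments 2, 4 and 5 did not pick these genes by likeness. The Cdh17 values of those libraries were among the values that chose the set, and they share experiments with the libraries above. There r with Cdh17 was 0.91 for Clip4, 0.83 for Sh2d5, 0.72 for Ppard, 0.57 for Cyth2 and 0.56 for Arpc1b, also as a description. In those co-cultures Clip4 averaged 5.94 per M on collagen IV, against 10.7 on uncoated plastic, and each of the other genes was also lower on collagen IV. On fibronectin Cyth2 averaged 52.2 per M against 52.3 on uncoated plastic, and Arpc1b 425 against 442. Both were lower on fibronectin in 2 of 3 pairs, and Clip4, Ppard and Sh2d5 in 3 of 3.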

How the data were processed

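The 40 RNA sequencing libraries were assigned to 10 groups (5 substrates, with and without T cells) from the labels, which also give the experiment number. Per the submitters' processing notes, the tools were edgeR 3.31.7, STAR 2.6 and featureCounts, with the mm10 build; options and annotation are not given in the sources used here. The deposited signal is a read count divided by a scaled library size: whole reads were recovered for 100% of values, within 0.01. Columns sum to 956225 to 1037118.

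Of 21347 genes, 14701 reached 1 per M in at least 3 libraries. log2(value + 1) was fitted with limma 3.58.1 in R 4.3.3 over 10 group means (30 residual degrees of freedom). edgeR 4.0.16 (quasi-likelihood) on recovered reads, the experiment as a replicate block, other pseudocounts, filters and scalings, and leaving out libraries or experiments were alternatives. Libraries of different groups that shared an experiment correlated in their residuals (median 0.48 over 156 pairs, against −0.13 over 562 pairs that did not), so the experiment number pairs libraries, as the labels' experimental replicate numbers say. No pair within a group was a copy (chi-square per degree of freedom at least 6.5 in 62 pairs). The stated counting error and 3-read floor cover counting only, as reads carry no molecular identifiers, while SD and SE are from the spread between libraries. Scripts were tested on simulated data. P values of the main fit measure the spread between libraries within groups, and treat libraries of one experiment as independent. Fits with experiment terms measure the spread left after those terms. All libraries come from these 5 experiments with 1 cell line.

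Ldha (a cell that held no number) was left out and Cd3d, listed on 2 identical lines, was kept once. The members and the gene lists were chosen with earlier results of these data known. The genes named from a list were those that passed the T cell test (at most 3 in each direction), or else the 1 or 2 most abundant, and the 5 genes most like Cdh17. Aph1a and Adam15 fall outside that rule and were chosen after their values were seen.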

Additional observations from a re-analysis of the deposited data

Results flagged for a closer look

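The effect of T cells on Cdh1 differed between experiments (F test of the T cell effect by experiment, limma adjusted p = 0.0056). The mean log2 difference was −0.32 in experiment 4 and 0.04 in experiment 5, and Cdh1 was lower with T cells in 5 of 5 pairs of experiment 4 and in 2 of 5 of experiment 5. Without experiment 4 the adjusted p was 0.58, and with scaling to the epithelial markers it was 0.403. The same F test on all libraries called 46.4% of all genes. In 32 checks, of each of the 4 cadherins in the 8 groups of 4 or 5 libraries, no library stood apart from the others.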

How the results depend on the processing

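Of 504 values of single cadherins under alternatives other than leaving out 1 library, 469 kept their direction and 35 reversed. Cdh17 kept its direction on collagen IV and fibronectin under all 14 alternatives: −0.90 to −0.63 on collagen IV and −0.76 to −0.54 on fibronectin in 4T1 alone, −0.75 to −0.37 and −0.47 to −0.31 in co-culture. The fall of Cdh17 on these coats chose the set, and the alternatives refit the same libraries or a part of them. These Cdh17 values, which are also among the 504, are therefore a description. The count of cadherins called for the T cell effect went from 0 to 1 with the replicate block, to 1 with edgeR and the block, to 2 with quantile normalisation and to 1 with the block and epithelial scaling, where Cdh1 was higher with T cells (adjusted p = 0.012) and not lower as with the block alone. For the T cell effect by experiment it went from 1 to 3 with quantile normalisation and to 0 without experiment 4. For the experiment it went from 4 to 2 with epithelial scaling, and leaving out 1 library gave 3 to 4. No other count of cadherins changed with the block. The cause was not tested for any of these. Adding T cells called 3710 genes in all, 6726 with the block, 430 without experiment 4, 1365 without experiment 3, 1066 with epithelial scaling, and 1516 to 5228 without 1 library, falling most without the experiment 4 co-cultures on vitronectin (1516), collagen I (1885), uncoated plastic (2216) and fibronectin (2335). Collagen I in 4T1 alone called 14 genes, and 0 to 256 under the alternatives.

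For the T cell effect, epithelial scaling gave 0.086 for Cdh1, 0.126 for Cdh17 and 0.014 for Cdh3, the block with that scaling 0.077 for Cdh1 and 0.072 for Cdh17, quantile normalisation −0.225 for Cdh11 (adjusted p = 0.0388), leaving out experiment 4 0.014 for Cdh17 and leaving out experiment 5 0.01 for Cdh3. On collagen I in 4T1 alone, Cdh11 was −0.006 with quantile normalisation and −0.045 without experiment 5. On collagen I in co-culture, Cdh3 was −0.055 with the block, −0.096 with edgeR and the block, −0.242 with the block without experiment 4, −0.081 without experiment 1 and −0.17 without experiment 4, and without 1 library −0.134 to 0.144; Cdh11 was −0.034 without experiment 2 and Cdh17 −0.006 without experiment 5. On collagen IV in co-culture, Cdh1 was 0.014 with edgeR and the block, 0.18 with the block and epithelial scaling, 0.184 with that scaling, 0.121 with the block without experiment 4, 0.019 without experiment 1 and 0.074 without experiment 4, and Cdh3 −0.014 with the block without experiment 4, −0.075 without experiment 1 and −0.047 without experiment 4. On fibronectin in co-culture, Cdh3 was −0.075 with the block without experiment 4 and without experiment 4, and −0.024 without experiment 1. On collagen IV in 4T1 alone, Cdh11 was −0.059 without experiment 2 and −0.052 without experiment 5. On vitronectin, Cdh11 was −0.015 with quantile normalisation, −0.065 without experiment 3 and −0.026 without experiment 5 in 4T1 alone, and −0.015 without experiment 2 in co-culture. Leaving out 1 library at a time, Cdh1 on collagen IV went from −0.018 to 0.109 in 4T1 alone and −0.165 to 0.156 in co-culture, Cdh17 on vitronectin in 4T1 alone from −0.195 to 0.041 and on collagen I in co-culture from −0.022 to 0.153, and Cdh11 in 4T1 alone from −0.106 to 0.062 on vitronectin, −0.037 to 0.097 on collagen I and −0.05 to 0.085 on collagen IV. In co-culture, Cdh11 went from −0.048 to 0.095 on collagen I, −0.152 to 0.03 on fibronectin and −0.029 to 0.117 on vitronectin, Cdh3 from −0.096 to 0.136 on collagen IV, −0.039 to 0.174 on fibronectin and −0.208 to 0.004 on vitronectin, and Cdh1 from −0.242 to 0.006 on vitronectin. Counting error at the median library was 18.9% for Cdh3 and 20.6% for Cdh11, which limits single values of both genes.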
